A study of Mus musculus with 64 samples.

Results

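The neurofilament and alpha-internexin genes described here are Nefl, Nefm, Nefh and Ina, which encode the light, medium and heavy neurofilament subunits and alpha-internexin. They were taken by gene symbol and are 4 of the 18432 genes measured in mice with a Cyfip2 knock-in allele (KI, Cyfip2+/R87C) and their wild-type (WT) siblings, in hippocampus and frontal cortex. The genes were chosen by measured values of these data, but which values were used is not recorded. The earlier result known for them was the difference of Nefm between KI and WT in both regions at postnatal week (PWK) 28. All PWK 28 values of the 4 genes were therefore treated as used and are given as a description, with no test. Tests are given for PWK 1, 7 and 14, but whether values of these ages also entered the choice is not known, and their p-values should be read with that limit.

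Neurofilaments are the intermediate filaments of neurons, assembled from these subunits together, and they fill large axons and set their calibre. Alpha-internexin is known as an early subunit of developing neurons in the central nervous system, while the heavy subunit is known to accumulate later, as axons mature. Nefm and Nefh proteins carry a long tail with repeats of lysine, serine and proline (KSP), whose serines are heavily phosphorylated in axons. Large projection neurons are especially rich in neurofilament.

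The KSP repeat is what sets the heavy subunit apart in sequence. A stretch of 96 coding bases from the tail region of each gene that has the repeat is shown for this difference, read 5′ to 3′ on the minus strand of GRCm38 with each KSP codon triplet in capitals, from chr14:68121063-68121158 (codons 476 to 507 of Nefm) and chr11:4940974-4941069 (codons 517 to 548 of Nefh).
Nefm: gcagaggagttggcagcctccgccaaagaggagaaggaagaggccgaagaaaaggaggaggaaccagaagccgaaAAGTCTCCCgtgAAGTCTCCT
Nefh: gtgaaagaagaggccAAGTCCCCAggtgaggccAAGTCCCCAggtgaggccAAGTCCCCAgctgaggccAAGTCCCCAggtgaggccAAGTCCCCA
Each stretch is the first 32-codon window with the most KSP triplets in its gene, not a matched or typical part of the tail. The Nefm stretch held 2 KSP triplets and the Nefh stretch 5. Over the whole coding sequence, Nefh had 51 KSP triplets in 1090 codons, which is 4.68 per 100 codons, and they lay between codons 522 and 887. Nefm had 4 in 848 codons. Neither Nefl, with 543 codons, nor Ina, with 501, had any.

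In the GENCODE annotation of GRCm38, Nefl (ENSMUSG00000022055) lies on chromosome 14 from 68083863 to 68089095 on the plus strand. Its neighbour Nefm (ENSMUSG00000022054) lies on the same chromosome from 68082590 to 68124846 on the minus strand. The first exon of Nefl and the last exon of a longer Nefm transcript with a shorter coding sequence overlap on opposite strands over 1108 bases, from 68083863 to 68084970, which is 32.8% of the exon length of Nefl. Of the 31-base words of Nefl transcripts, 32.2% also occurred in Nefm on the opposite strand and 0 in any gene on the same strand. Of the words of Nefm, 18.8% occurred in Nefl on the opposite strand and 0.244% in any other gene on the same strand. On either strand, 1058 other genes shared at least 1 word with Nefm, and 19.1% of its words were shared. Nefh (ENSMUSG00000020396) lies on chromosome 11 from 4938754 to 4948064 on the minus strand, and shared no such word with any other gene. Ina (ENSMUSG00000034336) lies on chromosome 19 from 47014698 to 47025327 on the plus strand, and 13.3% of its words occurred in Nt5c2 on the opposite strand. The libraries came from a stranded kit, but the strand setting of the quantification is not given in the sources used here. If strand was not used, reads from the shared stretch of Nefl and Nefm cannot be told apart, and the part of this in the values was not tested.

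The KI mice carried the Arg87Cys change in 1 copy of Cyfip2, on the C57BL/6N background, and the controls were WT littermates. CYFIP2 is a subunit of the WAVE complex, which drives actin branching. Each of the 16 groups of region, age (PWK 1, 7, 14 or 28) and genotype held 4 libraries. The same mice gave a cortical and a hippocampal library, so that the regions are not from separate animals. The ages were chosen by the study to cover neonatal spasms, a seizure-free period and the later age of recurrent seizures.

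The unit is the normalized count after the authors' scaling, and each library summed to between 29.23 M and 32.6 M such counts (M, mega). Because the values are scaled, the depth of each library is not known exactly, and precision was judged from the spread between replicates. The region labels held in the markers: the summed level of Prox1, Dsp, C1ql2 and Spink8 lay between 451 and 765 in all cortical libraries and between 5183 and 10865 in all hippocampal ones. Those of Rorb, Cux2 and Tshz2 were 4722 to 9709 in cortex and 1916 to 6995 in hippocampus, with overlap over the ages. All 4 genes were well above the filter on low values, with a lowest value of 734 (Nefh) in any library. Tissue was measured in bulk, so that fewer cells of a type and less RNA per cell cannot be told apart.

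Per kb of exon, Nefl was the most abundant of the 4 genes in all 16 groups. Nefh was the least abundant in all of them except KI cortex at PWK 28, where Nefm was lower, at 633 against 780.4 normalized counts per kb. In WT cortex at PWK 14, the level per kb was 3682 ± 175 (SD, n = 4) for Nefl, 1659.8 ± 60.7 for Ina, 1014 ± 40.4 for Nefm and 405 ± 10.7 normalized counts for Nefh. The length used for Nefm, 5782 bases, merges both of its transcripts. With the 3334 bases of the transcript that has the longest coding sequence, the mean share of Nefm in the 4-gene sum over all libraries was 20.7% instead of 13.1%. With that length Nefh was below Nefm in KI cortex at PWK 28 as well. This length sets the level of Nefm relative to the others and leaves comparisons of one gene between groups as they are.

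**Figure D1:**
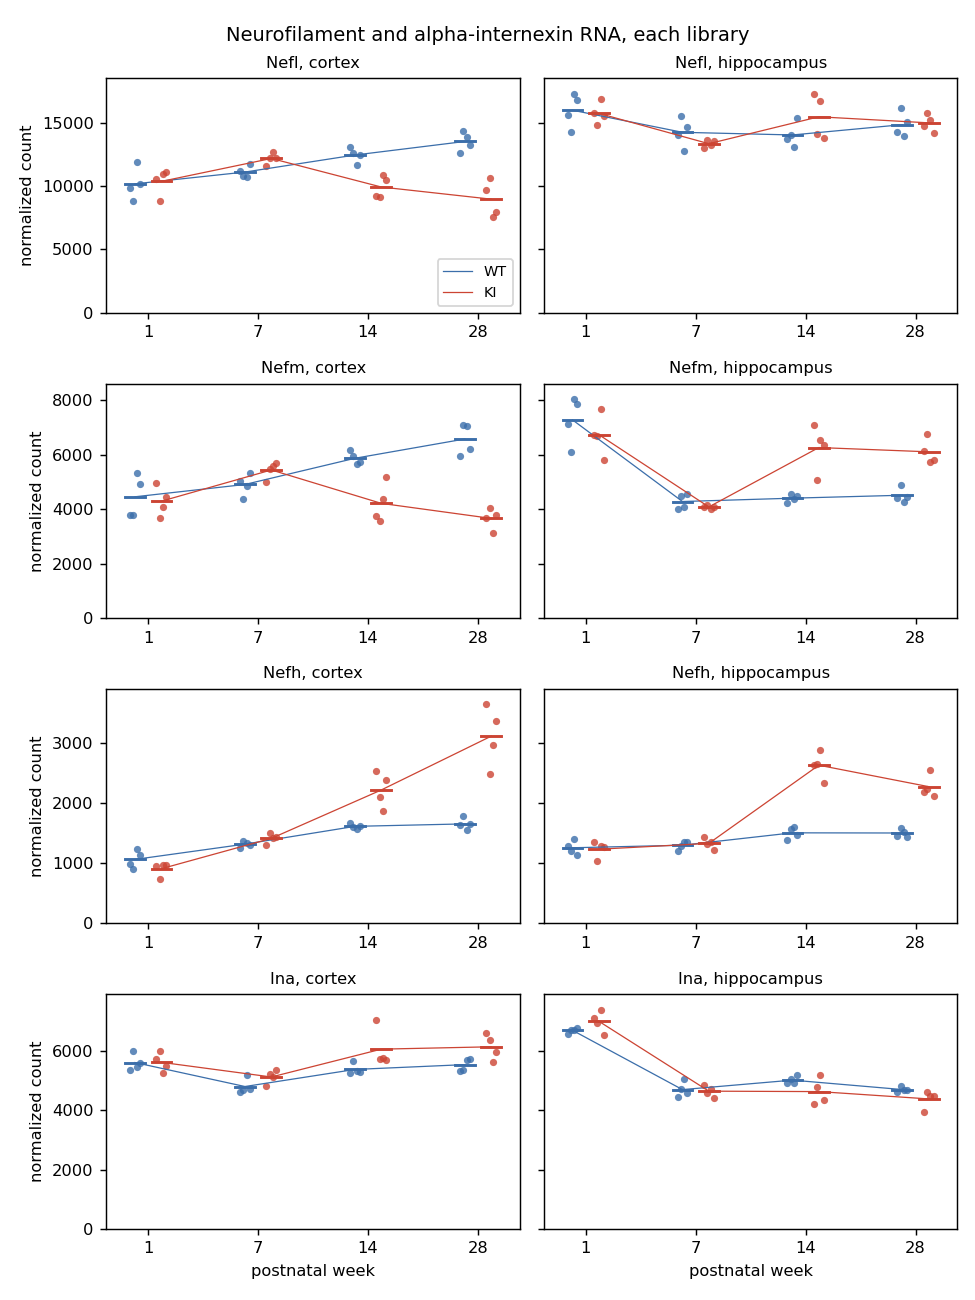
Normalized counts (y axis, from 0) of Nefl, Nefm, Nefh and Ina in each library by postnatal week (x axis), in cortex (left) and hippocampus (right). Points are single libraries, 4 per group, and short bars and thin lines are group means, with WT in blue and KI in red. In cortex at PWK 14 and 28, all KI libraries lie below all WT libraries for Nefl and Nefm and above them for Nefh. In hippocampus at both ages, all KI libraries lie above all WT libraries for Nefm and Nefh.

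In WT cortex, Nefh rose with age between PWK 1 and 14, and Ina fell between PWK 1 and 7. The 4 WT libraries held 982, 911, 1237 and 1133 normalized counts of Nefh at PWK 1, 1255, 1378, 1335 and 1312 at PWK 7 and 1671, 1612, 1567 and 1615 at PWK 14, with no overlap between consecutive ages. By limma with adjustment over all genes, Nefh changed from PWK 1 to 7 by a log2 difference of 0.32 (SE 0.086, adjusted p = 0.0062). The step from PWK 7 to 14 added 0.29 (SE 0.049, adjusted p = 0.00537). Ina, the early subunit, had a log2 difference of -0.22 (SE 0.05, adjusted p = 0.00191) from PWK 1 to 7, with means of 5610.4 ± 285 and 4801 ± 257 normalized counts. At this step 2 of the 4 genes were called, against 65.3% of all genes tested, so most of the transcriptome moved. From PWK 7 to 14, Nefm was also called, with 0.26 (SE 0.059, adjusted p = 0.0245) on the log2 scale. Here 2 of the 4 genes were called against 5.32% of all genes, but neither was with 1 spread fitted over all 64 libraries (adjusted p = 0.0717 for Nefh and 0.155 for Nefm). Scaling to 6 neuronal genes (Rbfox3, Snap25, Syt1, Stmn2, Syn1 and Eno2) also lost the call of Nefh from PWK 1 to 7 (0.12, adjusted p = 0.229). The call of Nefm was lost without WT cortex replicate 1 or 2 at PWK 14 or replicate 2 or 3 at PWK 7, with adjusted p between 0.0529 and 0.0763.

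In WT hippocampus, the step from PWK 1 to 7 was a fall of Nefm and Ina. Nefm stood at 7112, 6098, 8035 and 7843 normalized counts in the WT libraries at PWK 1 and at 4021, 4477, 4069 and 4545 at PWK 7. The PWK 7 level was 0.588 times that of PWK 1, a log2 difference of -0.76 (SE 0.081, adjusted p = 8.96e-06). For Ina, which went from 6698 ± 79.8 to 4697 ± 260.0 (SD, n = 4), the log2 difference was -0.51 (SE 0.042, adjusted p = 1.1e-06), again without overlap. Nefl, at 15976 ± 1336 and 14234 ± 1152, and Nefh, at 1259.8 ± 112 and 1302 ± 72.1, were not called (limma adjusted p = 0.0572 and 0.546). The 2 called genes compare with 61.3% of all genes at this step. From PWK 7 to 14, 0 of the 4 genes were called by limma, 1 (Nefh, log2 difference 0.21) had an unadjusted p under 0.05, as did 3184 of all 18397 genes, and 1.99% of all genes were called. At PWK 28, WT means stood at 4509 ± 274 for Nefm and 1506 ± 68.5 for Nefh, close to their PWK 14 levels.

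WT hippocampus and cortex differed in these genes, and the difference changed with age. At PWK 1, the hippocampus held more Nefl, with 15595, 14273, 17274 and 16763 normalized counts against 9828, 8829, 11870.5 and 10159 in cortex. The log2 differences (hippocampus minus cortex) were 0.66 (SE 0.085, adjusted p = 0.000122) for Nefl, 0.72 (SE 0.12, adjusted p = 0.000712) for Nefm and 0.26 (SE 0.042, adjusted p = 0.000654) for Ina, so that 3 of the 4 genes were called against 34.7% of all genes. The value for Nefh was 0.25 (SE 0.096, adjusted p = 0.0668), which did not pass. It passed with the replicate number as a block (adjusted p = 0.031), with total-sum scaling (0.0147), with scaling to the neuronal genes (0.000378) and in the fit of all 64 libraries (0.0367), with a higher level in hippocampus in each. Nefl was also higher in hippocampus in the older mice, by 0.36 (SE 0.056, adjusted p = 0.000367) in the PWK 7 group. For PWK 14 the Nefl difference was 0.17 (SE 0.059, adjusted p = 0.0403), with overlapping ranges. Nefm had the opposite sign and differed by -0.20 (SE 0.064, adjusted p = 0.0297) in the PWK 7 mice, with overlapping ranges. In the PWK 14 mice the Nefm difference was -0.41 (SE 0.046, adjusted p = 2.37e-05). The Nefm values at PWK 14 were 4217, 4546, 4371 and 4467 in hippocampus and 6156, 5942, 5637 and 5720.5 in cortex, without overlap. In each of these 2 comparisons, 2 of the 4 genes were called, against 40.8% of all genes at PWK 7 and 34.6% at PWK 14. None of these region fits had a term for the mouse, although both regions came from the same mice. Each region call given here also held with the replicate number as a block.

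Region differences are relative to the scaling used. Scaling to the 6 neuronal genes raised the median of all genes by 0.347 at PWK 7 and 0.364 at PWK 14 toward hippocampus, turned the Nefm value at PWK 7 to 0.145 (adjusted p = 0.0477) and brought that at PWK 14 to -0.06 (adjusted p = 0.263). Both of these values lie below the shifted median of all genes, as they do without this scaling. That is fixed in advance, since the scaling shifts all genes of a library by the same amount, and it adds no evidence. The call of Nefm at PWK 7 was also lost without WT cortex replicate 1, 3 or 4 or hippocampus replicate 1 or 3 (adjusted p from 0.0593 to 0.0884), under total-sum scaling and with all 64 libraries in the fit (0.0616 and 0.128). That of Nefl at PWK 14 was lost without cortex replicate 2, 3 or 4 or hippocampus replicate 1, 2 or 4 (0.0627 to 0.12), and with all 64 libraries in the fit (0.1).

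The first question about the KI mice was whether these genes already differed at the age of neonatal spasms and in the seizure-free period. In cortex at PWK 1, Nefh ranged from 734 to 979 normalized counts in KI and from 911 to 1237 in WT, and the ranges overlapped for all 4 genes. In cortex at PWK 7, the KI means were above the WT means for each gene, for example 12173 ± 463 against 11100.1 ± 468 for Nefl, with a log2 difference of 0.13 (SE 0.042, adjusted p = 0.399), and ranges overlapped. In hippocampus, Nefl stood at 13336 ± 302 in KI and 14234 ± 1152 in WT at PWK 7, and Nefm at 4079.8 ± 55.7 and 4278 ± 271. By limma, 0 of the 4 genes were called in any of these 4 comparisons. The share of all genes called was 0.00546% in cortex and 0.0109% in hippocampus at PWK 1, and 0.00545% and 0.0218% at PWK 7, so that hardly any gene passed. At an unadjusted p under 0.05, 2 of the 4 genes passed in cortex at PWK 7 (Nefl and Nefm), where 1477 of all 18358 genes did, and 0 in the other 3 comparisons.

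At PWK 14 in cortex, the KI libraries held less Nefl and Nefm RNA and more Nefh RNA than those of WT littermates, while Ina did not pass the test. The light subunit, Nefl, measured 9233, 9164, 10846 and 10439 normalized counts in the KI libraries and 13097, 12565, 11664 and 12447 in the WT libraries. All KI values were below all WT values, and the KI mean was 0.797 times that of WT, a log2 difference of -0.33 (SE 0.068, adjusted p = 0.0215). The medium subunit, Nefm, measured 3754, 3556, 4369.5 and 5163 in KI and 6156, 5942, 5637 and 5720.5 in WT. Again no KI library reached the WT range, and the KI mean was 0.718 times the WT mean, or -0.49 (SE 0.10, adjusted p = 0.0213) on the log2 scale. The heavy subunit, Nefh, went the other way, with 2529, 2102, 1874 and 2381 in KI and 1671, 1612, 1567 and 1615 in WT. Every KI library was above the WT libraries, at 1.38 times the WT mean, with a log2 difference of 0.45 (SE 0.086, adjusted p = 0.0161). Ina had 7039.6, 5743, 5761 and 5707 in KI and 5249, 5669.8, 5314 and 5278 in WT, which did not overlap, but its log2 difference was 0.17 (SE 0.072, adjusted p = 0.213).

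Thus 3 of the 4 genes were called in cortex at PWK 14 by limma, against 5.18% of all genes tested. How many of all genes had separate KI and WT ranges was not counted in this or any other comparison. The adjusted p-values lay near the threshold, and leaving out 1 library often moved them past it, without a change of sign. For Nefl this happened without KI replicate 2 or WT replicate 1, 2 or 4 (adjusted p from 0.0514 to 0.0768). For Nefm it happened without KI replicate 2 or any 1 of the WT replicates 1, 2, 3 and 4 (0.0501 to 0.0735), and for Nefh without WT replicate 3 (0.0503). The number of all genes called fell at the same time, from 951 to between 339 and 531 in the fits with fewest members called.

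**Figure D2:**
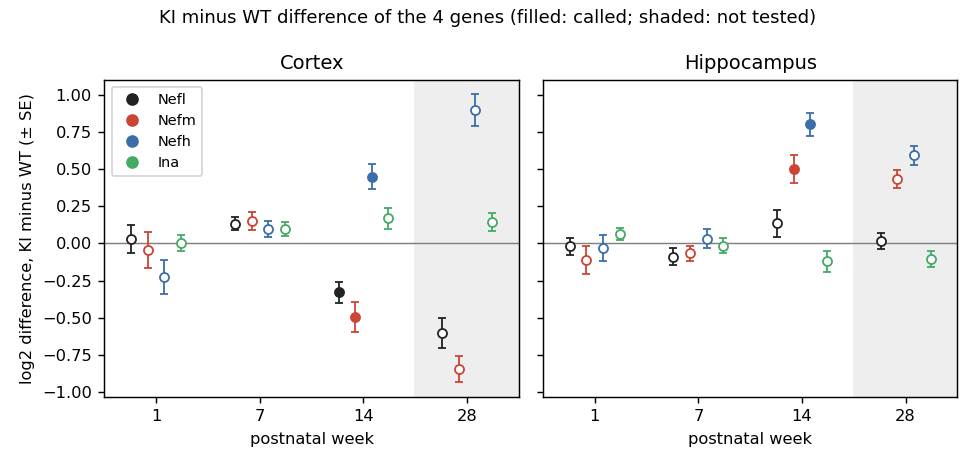
Log2 difference between KI and WT (y axis, KI minus WT, error bars ± SE, n = 4 per group) of the 4 genes by postnatal week (x axis) in cortex (left) and hippocampus (right). Filled points were called at an adjusted p under 0.05, open points were not, and the shaded PWK 28 values were not tested. Points lie within 0.25 of 0 at PWK 1 and 7, while at PWK 14 Nefl and Nefm are below 0 in cortex and Nefm and Nefh above 0 in hippocampus. The small positive Ina value in cortex at PWK 28 turns to -0.03 when scaled to 6 neuronal genes. Of these 6 genes, 2 were called higher in KI in that comparison, and the scaling moved the median of all genes to -0.178.

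In hippocampus at PWK 14, Nefm and Nefh were both higher in KI, and Nefl and Ina did not pass. The KI libraries held 2645, 2655, 2890.3 and 2345 normalized counts of Nefh and the WT libraries 1388, 1571, 1606 and 1467. The gap between the groups was wider than the spread within either, at 1.75 times the WT mean, and the log2 difference was 0.80 (SE 0.077, adjusted p = 0.000632). Nefm, which was lower in KI cortex, measured 7092, 5072, 6523 and 6344 in KI hippocampus and 4217, 4546, 4371 and 4467 in WT. All KI libraries were higher, at 1.42 times the WT mean, with a log2 difference of 0.50 (SE 0.094, adjusted p = 0.00904). For Nefl, 17257, 14080.5, 16739.8 and 13756 in KI overlapped with 13673, 14030.0, 13037 and 15361 in WT, and for Ina 4198, 4780.4, 5199.8 and 4342 overlapped with 4919, 5046, 4917 and 5185. The log2 difference was 0.14 (SE 0.091, adjusted p = 0.342) for Nefl and -0.12 (SE 0.072, adjusted p = 0.284) for Ina. In this comparison 2 of the 4 genes were called, against 15.6% of all genes, and both calls held in each of the 8 fits without 1 library.

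The difference between the regions was itself tested at PWK 14. The KI difference in hippocampus minus that in cortex was 0.99 (SE 0.15, adjusted p = 0.00261) for Nefm and 0.47 (SE 0.12, adjusted p = 0.0418) for Nefl on the log2 scale, by limma's term for region and genotype in 16 libraries. For Nefm the term had opposite effects behind it, higher in KI hippocampus and lower in KI cortex, and it was called without any 1 of the 16 libraries (adjusted p up to 0.00982). The call of Nefl was lost in 12 of these 16 fits, with adjusted p from 0.052 to 0.089: without any cortical library except KI replicate 3, hippocampal KI replicate 1 or 3, or hippocampal WT replicate 1, 2 or 3. For Nefh, which was higher in KI in both regions, the term was 0.35 (SE 0.12, adjusted p = 0.128), and for Ina it was -0.29 (SE 0.10, adjusted p = 0.151), neither of which passed. The Nefh term passed with scaling to the neuronal genes (0.50, adjusted p = 0.0338) and the Ina term in the fit of all 64 libraries (-0.29, adjusted p = 0.0149). In all, 2 of the 4 genes were called, against 2.85% of all genes. This fit had no term for the mouse, although both regions came from the same mice. The calls of Nefm and Nefl also held with the replicate number as a block. Scaling to the 6 neuronal genes shifted the median of all genes by 0.148 in this term, and the Nefm and Nefl values became 1.14 and 0.61.

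Whether the KI difference at PWK 14 exceeded that at PWK 7 was tested as well. In cortex, the KI difference of Nefl changed by -0.46 (SE 0.08, adjusted p = 0.00455) and that of Nefm by -0.64 (SE 0.13, adjusted p = 0.0112), 2 of 4 genes called against 3.18% of all genes. The value for Nefh in cortex was 0.35 (SE 0.10, adjusted p = 0.0797), and it was not called. In hippocampus, the change was 0.56 (SE 0.11, adjusted p = 0.00419) for Nefm and 0.77 (SE 0.10, adjusted p = 0.000255) for Nefh, 2 of 4 genes against 10.3% of all genes. These 4 calls held without any 1 of the 16 libraries in each fit. Ina passed in neither region, with values of 0.07 in cortex and -0.10 in hippocampus. These terms use the same PWK 14 libraries as the comparisons above and are not separate evidence.

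At PWK 28, given as a description for the reason stated above, the signs in cortex and hippocampus were those of PWK 14 for Nefm and Nefh. In cortex, Nefm measured 3681, 4042, 3131 and 3779 in KI and 5959, 7093, 7042 and 6194 in WT, a log2 difference of -0.85. Nefl measured 9668, 10636, 7591 and 7956 in KI and 12635, 14354, 13860.2 and 13203 in WT, a difference of -0.60. Nefh measured 3645, 2493, 2967 and 3362 in KI and 1638, 1781, 1558 and 1652 in WT, a difference of 0.90. None of these ranges overlapped between genotypes, and the KI mean was 0.557 times the WT mean for Nefm, 0.663 times for Nefl and 1.88 times for Nefh. Of all genes tested in this comparison, 22.2% were called, and the share of all genes without overlap was not counted. Ina ranged from 5624 to 6601 in KI and from 5342 to 5742 in WT, with overlap.

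In hippocampus at PWK 28, Nefm had 6128, 6743, 5739 and 5793 normalized counts in KI and 4414, 4902, 4268 and 4451 in WT, a log2 difference of 0.44. Nefh had 2195, 2236, 2558 and 2116 in KI and 1457, 1593, 1526 and 1445 in WT, a difference of 0.59. Both were separated between the genotypes. Of all genes tested in this comparison, 15.8% were called, and the share of all genes without overlap was not counted. Nefl stood at 14980.4 ± 667 in KI and 14837 ± 969.5 in WT, and Ina at 4383 ± 302 and 4699 ± 86.0, with overlapping ranges. In WT mice of this age the hippocampus minus cortex differences were 0.13 for Nefl, -0.54 for Nefm, -0.14 for Nefh and -0.24 for Ina.

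Seen over the 4 ages, the groups ordered as follows. In cortex the WT mean of Nefm was lowest at PWK 1 and highest at PWK 28, at 4452 ± 789 and 6572 ± 580.4, whereas the KI mean was highest at PWK 7 (5436 ± 301) and lowest at PWK 28 (3658 ± 383). The KI mean of Nefl in cortex had the same order, with 12173 ± 463 at PWK 7 and 8963 ± 1436 at PWK 28. Over all 16 groups, the highest mean was that of WT hippocampus at PWK 1 for Nefl (15976 ± 1336) and Nefm (7272 ± 878), and of KI cortex at PWK 28 for Nefh (3117 ± 500.3). For Ina it was KI hippocampus at PWK 1 (7002 ± 349). The lowest group was KI cortex at PWK 28 for Nefl and Nefm, KI cortex at PWK 1 for Nefh and KI hippocampus at PWK 28 for Ina. Neighbours in this order overlapped in their ranges in 15 of 15 pairs for Nefl, Nefm and Ina and in 14 of 15 for Nefh. Single steps in the order are thus not distinguishable, except 1 for Nefh. That step lay between WT cortex at PWK 28 and KI cortex at PWK 14. The KI groups of PWK 14 and 28 in both regions lay above it, and all other groups lay below.

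Since the subunits assemble together, their proportions were described next, as each gene's share of the 4-gene sum per kb. The share of Nefh in WT cortex was 4.60% ± 0.273 (SD, n = 4) in the youngest mice (PWK 1). It was 5.57% ± 0.333 at PWK 7, then 5.99% ± 0.0969 in PWK 14 mice and 5.72% ± 0.347 in PWK 28 mice. In KI cortex it was 9.14% ± 1.13 at PWK 14 and 13.2% ± 2.35 at PWK 28, so that the heavy subunit took more of the sum. The share of Nefl in cortex at PWK 28 was 55.1% ± 0.686 in WT and 44.3% ± 3.29 in KI, and that of Ina 23.6% ± 1.24 and 31.9% ± 1.05. In hippocampus at PWK 14, Nefh took 5.54% in WT and 8.53% ± 0.544 in KI, and Nefm 11.1% ± 0.437 and 14.0% ± 1.45. The share of Ina went the other way in the hippocampus, with 22.7% ± 0.532 in WT and 18.5% ± 2.07 in KI. A share also moves when only the other genes of the sum change. The counts of Ina themselves overlapped between genotypes in cortex at PWK 28 and in hippocampus at PWK 14.

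**Figure D3:**
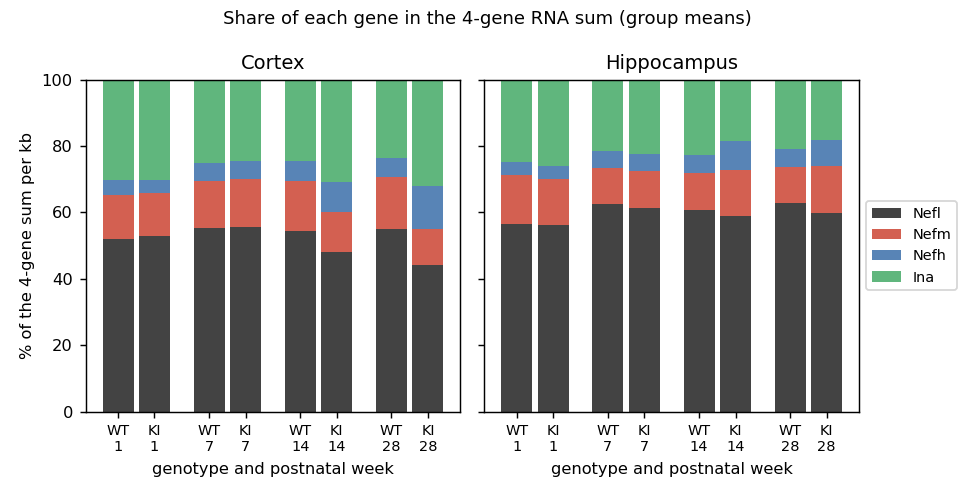
Share of Nefl, Nefm, Nefh and Ina in the sum of the 4 genes (y axis, percent of normalized counts per kb of merged exons, bars stacked from 0 to 100, group means of 4 libraries) by genotype and postnatal week (x axis) in cortex (left) and hippocampus (right). The Nefh part grows from 5.72% in WT to 13.2% in KI in cortex at PWK 28, and the Nefl part is the largest in every bar.

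Ratios within a library do not depend on a scaling factor that is the same for all its genes. Whether the authors' scaling also differed between genes of a library is not known here, so that the ratios may still depend on it. The log2 ratio of Nefh to Nefl counts in cortex was -2.94 ± 0.033 in WT and -2.16 ± 0.28 in KI at PWK 14, and -3.03 ± 0.088 and -1.52 ± 0.39 at PWK 28. The KI minus WT differences of this ratio were 0.78 and 1.503, and in hippocampus 0.67 and 0.58, in each case with all KI libraries above all WT libraries. At PWK 7 they were -0.03 in cortex and 0.12 in hippocampus, with overlap. At PWK 1 in cortex it was -0.26, with all KI libraries below the WT libraries. The ratio of Ina to Nefl separated the genotypes in cortex at PWK 14 and 28 only, with differences of 0.50 and 0.75, and the ratio of Nefm to Nefl in hippocampus at these ages only, with 0.36 and 0.42. In cortex at PWK 14 and 28 the Nefm to Nefl ratio overlapped between genotypes, with differences of -0.16 and -0.24. No test was run on these ratios.

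**Figure D4:**
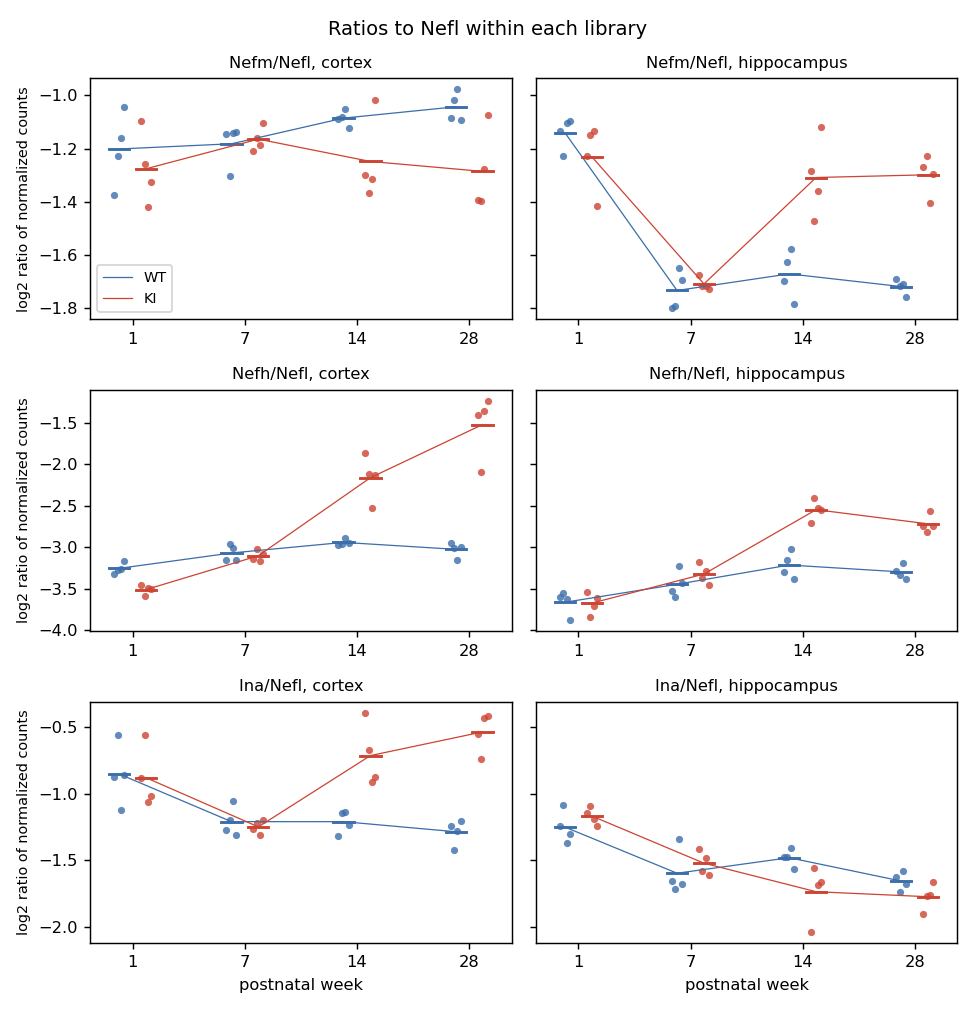
Log2 ratio of the normalized counts of Nefm, Nefh and Ina to those of Nefl in each library (y axis) by postnatal week (x axis), in cortex (left) and hippocampus (right). Points are libraries, 4 per group, and short bars and thin lines are means, with WT in blue and KI in red. The KI points for Nefh/Nefl leave the WT range upward at PWK 14 and 28 in both regions, with mean differences of 0.78 and 1.503 in cortex and 0.67 and 0.58 in hippocampus.

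The genes also differed in how they varied together, given here as Pearson's r of log2 values with no p. Over deviations of the 64 libraries from their group means, Nefl and Nefm had r = 0.74, the highest value for Nefm and the second highest for Nefl among 12818 other genes with a mean of at least 100. These 2 genes share the overlapping exon described above, and libraries share their scaling. The other pairs of members lay between -0.012 and 0.276. Over the 16 group means, Nefl and Nefm had r = 0.669, and Nefh had -0.081 with Nefl and -0.018 with Nefm. Outside the family, the genes closest to Nefh in the deviations were Lynx1 (0.761), a modulator of nicotinic receptors, Vamp1 (0.734), a synaptic vesicle protein, and St8sia5 (0.67), a sialyltransferase. Those closest to Nefl were Npnt (0.742), an extracellular matrix protein, Baalc (0.694) and Calm2 (0.672), a calmodulin. For Nefm they were Cacna1i (0.594), a T-type calcium channel, Sema7a (0.579), a membrane-bound semaphorin, and Ndufs3 (0.571), a subunit of respiratory complex I. For Ina they were Josd1 (0.645), Khdrbs3 (0.615), an RNA-binding protein, and Paqr3 (0.612).

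Over the group means, high values were those of Col5a3 (0.985) and Slc7a4 (0.972) for Nefh, and Chst8 (0.941), Gja1 (0.932), the astrocytic connexin 43, and Rftn2 (0.928) for Nefl. They were Rassf4 (0.887), Cmtm6 (0.841) and Sall1 (0.805) for Nefm, and Tbrg1 (0.909), Masp1 (0.879) and Skp2 (0.878) for Ina. With 16 points that share age, region and genotype, these values describe a like pattern over groups and nothing more.

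Other genes of the axonal cytoskeleton were counted in 4 lists. Among 11 other intermediate filament genes, 2 were higher and 0 lower in KI cortex at PWK 14, and 3 were higher and 1 lower in KI hippocampus, beside 5.18% and 15.6% of all genes called in either direction. The filament gene with the largest difference was Gfap, the astrocyte filament, at 1.56 (adjusted p = 0.0112) in cortex and 2.75 (adjusted p = 0.00129) in hippocampus on the log2 scale. Iffo1 was at 0.26 (adjusted p = 0.0381) in cortex. In hippocampus, Nes (nestin) was at 1.52 (adjusted p = 0.000972), and Lmna (lamin A/C), a nuclear filament, at 0.62 (adjusted p = 0.0148). The list's median log2 difference was 0.17 in cortex and 0.52 in hippocampus, beside medians of -0.0018 and 0.006 over all genes. At PWK 28 the counts were 2 higher and 0 lower in cortex, where 22.2% of all genes were called, and 4 higher and 2 lower in hippocampus, where 15.8% were. They were led by Nes at 2.12 (adjusted p = 0.0018) and Gfap at 1.52 (adjusted p = 0.00148) in cortex, and by Gfap at 2.00 (adjusted p = 3.35e-07), Vim (vimentin) at 1.01 (adjusted p = 2.32e-05) and Nes at 0.69 (adjusted p = 0.0327) in hippocampus.

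Of 25 genes for transport, linkage, phosphorylation and turnover of neurofilaments, 0 were higher and 1 lower in KI cortex at PWK 14, and 1 was higher and 3 lower in hippocampus. These are 1 of 25 and 4 of 25 genes, close to the 5.18% and 15.6% of all genes called. In hippocampus Mapk3, the kinase ERK1, was at -0.74 (adjusted p = 0.00185), Klc2, a kinesin light chain, at -0.37 (adjusted p = 0.016), and Kif5c, a kinesin motor, at 0.31 (adjusted p = 0.0306). In the PWK 28 mice, 7 were higher and 1 lower in cortex, and 5 higher and 3 lower in hippocampus, beside 22.2% and 15.8% of all genes. The largest differences in cortex were those of Trim2, a ubiquitin ligase known to act on the light subunit, at 0.64 (adjusted p = 0.000241), Mapk3 at -0.55 (adjusted p = 0.0394) and Klc1 at 0.52 (adjusted p = 0.00294). In hippocampus the largest included Mapk3 at -0.31 (adjusted p = 0.0106) and Arhgef28, which encodes an RNA-binding protein of neurofilament mRNA, at 0.27 (adjusted p = 0.00329). At PWK 14 the medians of this list were -0.028 in cortex and -0.0294 in hippocampus, close to those of all genes.

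Among 25 axonal microtubule genes, 2 were lower and 0 higher in KI cortex at PWK 14, namely Gap43, a growth cone protein, at -0.57 (adjusted p = 0.00814) and Map1a at -0.34 (adjusted p = 0.025), beside 5.18% of all genes. In hippocampus 2 were higher and 2 lower, 4 of 25 beside 15.6% of all genes, which is close to that share, with Tubb2b at 0.82 (adjusted p = 0.00406), Dclk1 at 0.55 (adjusted p = 0.00855) and Stmn1 at -0.47 (adjusted p = 0.0208) as the largest. At PWK 28, 8 were higher and 4 lower in cortex, where 22.2% of all genes were called, and the median of the list was 0.0669. The largest differences were nevertheless those of lower genes, Dcx (doublecortin) at -0.86 (adjusted p = 0.00771), Gap43 at -0.64 (adjusted p = 0.000329) and Dpysl3 at -0.57 (adjusted p = 0.00356). In hippocampus 4 were higher and 2 lower, 6 of 25 beside 15.8% of all genes, with Stmn4 at 0.31 (adjusted p = 0.00606), Dclk1 at 0.26 (adjusted p = 0.0227) and Dpysl2 at -0.24 (adjusted p = 0.00921). The medians at PWK 14 were -0.0429 in cortex and 0.134 in hippocampus.

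Of 19 genes of spectrin, the axon initial segment and the node of Ranvier, 0 were called by limma in cortex at PWK 14, where 6 had an unadjusted p under 0.05, as did 3786 of all 18367 genes. In hippocampus 1 was higher and 5 were lower, 6 of 19 beside 15.6% of all genes, with Cntnap1 (Caspr), a paranodal protein, at -0.66 (adjusted p = 0.00178), Sptbn4, a spectrin of initial segments and nodes, at -0.54 (adjusted p = 0.00276), and Scn1a, a sodium channel, at -0.46 (adjusted p = 0.00428). The 1 that was higher, Nfasc (neurofascin), is outside these and was at 0.40 (adjusted p = 0.00904). It is named after its value was seen. At PWK 28, 3 were higher and 0 lower in cortex, 3 of 19 beside 22.2% of all genes, which is below that share. Among them were the potassium channel subunit genes Kcnab2 at 0.30 (adjusted p = 0.00322) and Kcna1 at 0.24 (adjusted p = 0.0101). In hippocampus 5 were higher and 2 lower, 7 of 19 beside 15.8% of all genes, with Cntnap1 at -0.35 (adjusted p = 0.00577), Kcnq3 at -0.27 (adjusted p = 0.00507) and Kcna1 at 0.25 (adjusted p = 0.0242). The medians at PWK 14 were -0.0762 in cortex and -0.112 in hippocampus. Before PWK 14, limma called 0 of the 80 genes in these lists in either region. At an unadjusted p under 0.05, 2 passed in cortex and 8 in hippocampus at PWK 1, and 9 and 3 at PWK 7. Of all genes, 965 of 18311 and 1003 of 18361 did so at PWK 1, and 1477 of 18358 and 1144 of 18390 at PWK 7.

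**Figure D5:**
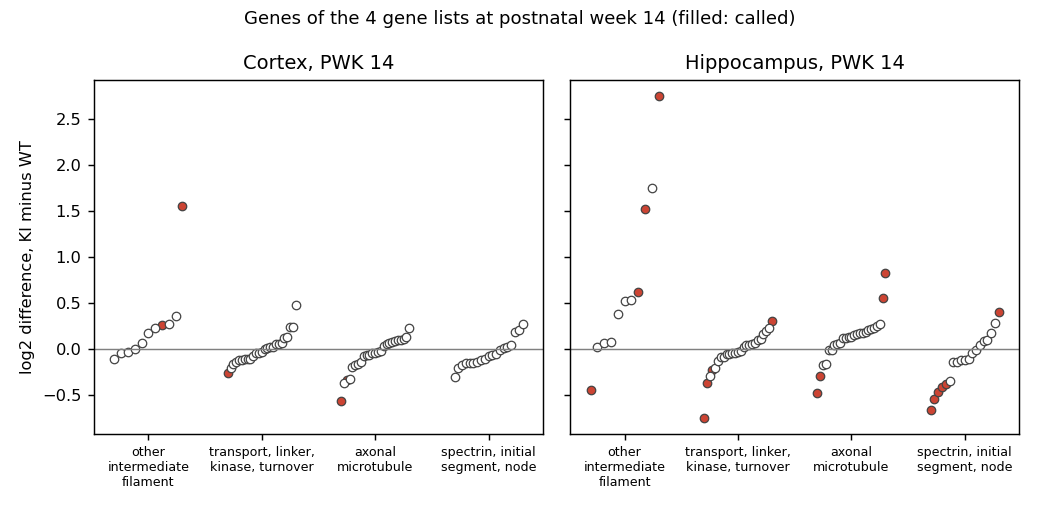
Log2 difference between KI and WT at PWK 14 (y axis, KI minus WT) for each gene of the 4 lists (x axis, genes sorted by value within a list) in cortex (left) and hippocampus (right). Filled points were called at an adjusted p under 0.05. Few genes are filled in cortex (2, 1, 2 and 0 in the order shown) and more in hippocampus (4, 4, 4 and 6), and Gfap is the highest point in both.

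Markers of cell types moved with genotype in the same libraries. In cortex at PWK 14, the summed level of 6 neuronal markers ranged from 198726 to 214803 in KI and from 194992 to 216342 in WT, with 0 of 6 called by limma and 3 at an unadjusted p under 0.05. Of 3 layer 5 markers, Fezf2 was lower in KI at -0.57 (adjusted p = 0.0189), and their sum ranged from 5373 to 6770.0 in KI and 6095 to 7785 in WT. All 3 were lower at PWK 28 in KI cortex, where Fezf2 was at -0.66 (adjusted p = 0.00176), Etv1 at -0.56 (adjusted p = 0.0126) and Bcl11b at -0.42 (adjusted p = 0.0358), with sums of 3897 to 5379 and 5820.0 to 7573. The 3 excitatory markers split at PWK 14. Camk2a was lower, at -0.46 (adjusted p = 0.0213), Neurod6 was at -0.49 (adjusted p = 0.0654), and Slc17a7 was at 0.30 (adjusted p = 0.162), with 49233 to 74576 in KI and 44075 to 47498 in WT, which did not overlap. All 3 had an unadjusted p under 0.05. Camk2a held most of their sum, which was 146742 to 165426 in KI and 174425 to 194466 in WT, so that the sum mainly followed Camk2a. All 3 inhibitory markers were higher at PWK 14, with Gad2 at 0.75 (adjusted p = 0.0177), and the sums were 18318 to 25643 and 13916 to 15288. For 3 parvalbumin interneuron markers, limma called 0 and 2 had an unadjusted p under 0.05, but the sums did not overlap, with 9012 to 11459.8 in KI and 8656 to 8876 in WT. Of 4 astrocyte markers, 2 were higher (Gfap, and Aldh1l1 at 0.34 (adjusted p = 0.012)) and 1 lower (Slc1a3 at -0.36 (adjusted p = 0.0203)), and of 3 endothelial markers 2 were lower (Cldn5 at -0.64 (adjusted p = 0.00867) and Flt1 at -0.51 (adjusted p = 0.00239)). At PWK 28 in cortex, Slc17a7 was higher at 0.89 (adjusted p = 0.000367) and Camk2a lower at -0.72 (adjusted p = 0.00203). Of the inhibitory markers, 2 of 3 were higher (Gad2 at 1.15 (adjusted p = 0.00187) and Slc32a1 at 0.65 (adjusted p = 0.00297)), and the sums were 22834 to 34021 in KI and 16061 to 22206 in WT, without overlap. Of the parvalbumin markers, 2 of 3 were higher (Syt2 and Pvalb), and the sums of 8397 to 9916 and 8044 to 8949 overlapped. The part of these shifts in the cortical Nefl, Nefm and Nefh values was not tested.

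In hippocampus at PWK 14, the neuronal sum ranged from 123654 to 150886 in KI and 149293 to 157997 in WT, with 1 of 6 lower, Syt1 at -0.37 (adjusted p = 0.0158), while Nefm and Nefh were higher. Of the 4 hippocampal markers, 2 were lower, Dsp at -0.66 (adjusted p = 0.0181) and Spink8 at -0.42 (adjusted p = 0.0313). The parvalbumin sum was 5363 to 6415 in KI and 6889 to 7459.7 in WT, and 1 of 3 was called, Kcnc1 at -0.30 (adjusted p = 0.00676). The inhibitory sum was 17464 to 20883 in KI and 14786 to 16294 in WT, and 1 of 3 was called, Gad2 at 0.49 (adjusted p = 0.00376). KI libraries were thus below WT for the first list and above it for the second, without overlap. The astrocyte sum of 4 markers was 68406 to 183682 in KI and 34836 to 38810.0 in WT, with Gfap and Aqp4 called higher. Oligodendrocyte sums overlapped, with 91199 to 158382 and 127217 to 157866, and 0 of 6 were called by limma or at an unadjusted p under 0.05. The thalamic sum was 1340.3 to 1928 in KI and 1919 to 2182 in WT, with overlap and 1 of 3 lower, Prkcd at -0.83 (adjusted p = 0.0264). The striatal sum was 503 to 648 in KI and 209.9 to 288 in WT, without overlap and with 1 of 3 higher, Drd1 at 2.07 (adjusted p = 0.0015). At PWK 28 in hippocampus, the astrocyte sum was 64891 to 76561 in KI and 35646 to 37322 in WT, with 2 of 4 markers higher. The microglial sum was 8458 to 8890.1 and 6567 to 7679.7, with 3 of 5 higher, and the inhibitory sum 17099 to 20520.1 and 13269.5 to 15224, with 3 of 3 higher. None of these 3 sums overlapped between genotypes, nor did the thalamic sum (1364 to 1490.0 in KI, 1863 to 2324 in WT) or the striatal sum (480.5 to 600.3 and 196 to 331), while the neuronal sums did, with 132798 to 148951 in KI and 139524 to 150419 in WT. The part of these shifts in the hippocampal Nefm and Nefh values was not tested. Of the markers of all lists, Folr1 of the choroid plexus was listed at 0 in at least 1 PWK 1 cortical library of each genotype, and the hindbrain and spinal cord markers, where neurofilament is abundant, were absent from the table (0 of 3).

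The edited gene was checked beside these values. Since the allele differs in 1 codon and is still transcribed, the RNA level of Cyfip2 does not test the labels. In cortex, Cyfip2 measured 28584, 33140.3, 38683 and 33633 in KI and 42735, 44053, 40443 and 39966 in WT at PWK 14, a log2 difference of -0.33 that did not pass (limma adjusted p = 0.0539). In hippocampus at that age the KI libraries spread from 20608 to 34409 and those of WT from 31064 to 35756, and at PWK 28 in cortex its difference was -0.44 (adjusted p = 0.0058).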

How the data were processed

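RNA of 64 libraries from mouse frontal cortex and hippocampus (4 per group, 16 groups) was sequenced by the study. The authors estimated transcript abundance with Salmon on GRCm38, imported it with tximport and scaled it with DESeq2 (versions in the submitters' processing notes: Salmon 0.11.2, R 3.6.0, DESeq2 1.19.11; the paper's methods name later ones). The kit is TruSeq Stranded mRNA per the labels, while the paper's methods name a total RNA kit. The deposited table holds this normalized signal, taken here as an estimated count after the authors' scaling, for 18432 genes, of which 18420 IDs matched GENCODE vM21 and 12 did not. Whether the scaling used 1 factor per library or also a factor per gene is not known here. Whole reads could not be recovered (27% to 56.3% of low values within 0.1 of a whole multiple, where chance gives 20%), so no count model was run.

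Here limma-trend (limma 3.58.1, R 4.3.3) was fitted to log2(value + 1) over all genes with a mean of at least 1 in the libraries of a comparison, without covariates. This scale understates changes of weakly expressed genes. The call was an adjusted p under 0.05 (Benjamini-Hochberg, over all genes tested). The KI comparisons at PWK 14 in both regions and their region term were checked on simulated data with known changes. The other fits were not checked in this way. Interactions used 16 libraries. Levels between genes were compared per kb of merged exons. Group values are means ± SD (n = 4). Depth per library is unknown after scaling.

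The 4 genes, the lists and the tests were chosen with earlier results of these data known. Genes named are the 4 members, at most 3 called genes per list and comparison with the largest log2 difference, cell type markers, the 3 genes most like each member by each correlation, and Cyfip2; a few genes that this rule selects are not reported here. Alternatives were a pseudocount of 10, no filter or a mean of at least 10, total-sum and neuronal scaling, a fit of all 64 libraries, a replicate block, other transcript lengths and leaving out each library in turn. KSP triplets and shared words of 31 bases were counted in the reference sequences by GENCODE transcript. Amino acid sequences were not used here.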

Additional observations from a re-analysis of the deposited data

Results flagged for a closer look

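A test for a library far from the others of its group (Dixon's, 95% level) was run for the 4 genes in all 16 groups. It marked 3 of 64 gene and group combinations, close to the 3.2 that chance gives at about 1 in 20. They were Nefh in KI cortex at PWK 1, where replicate 2 was lowest at 734 normalized counts, Ina in WT cortex at PWK 14, where replicate 2 was highest at 5669.8, and Ina in KI cortex at PWK 14, where replicate 1 was highest at 7039.6.

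KI differences that differed between groups by an interaction term, on the log2 scale, were those of Nefl and Nefm between hippocampus and cortex at PWK 14 (0.47 and 0.99). Between PWK 14 and PWK 7, they were those of Nefl and Nefm in cortex (-0.46 and -0.64) and of Nefm and Nefh in hippocampus (0.56 and 0.77). All were called by limma over all genes.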

How the results depend on the processing

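Of 64 tested differences of the 4 genes, 24 were called, and 14 of these remained called under every alternative run, which include those of Nefm and Nefh in KI hippocampus at PWK 14 and the region term of Nefm. Without 1 library, the number of the 4 genes called ranged from 1 to 3 for KI cortex at PWK 14, from 1 to 2 for the region term at PWK 14, from 2 to 2 for KI hippocampus at PWK 14, from 3 to 4, 1 to 2 and 1 to 2 for WT hippocampus against cortex at PWK 1, 7 and 14, from 2 to 4 and 1 to 3 for WT cortex from PWK 1 to 7 and from PWK 7 to 14, from 2 to 3 and 0 to 0 for WT hippocampus at these steps, and from 2 to 3 and 2 to 2 for the age terms in cortex and hippocampus. The KI comparisons at PWK 1 and 7 stayed between 0 and 0. For WT cortex from PWK 1 to 7, the fit with 4 called was the one without cortex PWK 1 replicate 3.

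Scaling to 6 neuronal genes moved the median of all genes by 0.311 to 0.364 (log2) in the region comparisons, -0.187 and -0.158 from PWK 1 to 7, -0.178 in KI cortex at PWK 28 and 0.148 in the region term at PWK 14. Under it 4 of the 4 genes were called between regions at PWK 7, and 1 from PWK 1 to 7 and 1 from PWK 7 to 14 in WT cortex. Signs reversed, hippocampus minus cortex, for Nefm (0.15), Nefh (0.32) and Ina (0.31) at PWK 7, for Nefh (0.25) and Ina (0.25) at PWK 14, for Nefh (0.21) and Ina (0.11) at PWK 28, and for Ina in KI cortex at PWK 28 (-0.028). Taken relative to the median, these region values lie below 0, as without this scaling. Since the scaling shifts all genes of a library alike, this is fixed in advance and adds no evidence. The PWK 28 values of Nefl, Nefm and Nefh in KI cortex became -0.78, -1.02 and 0.72. Total-sum scaling left 1 gene called between regions at PWK 7, and the fit of all 64 libraries 1 at PWK 7, 1 at PWK 14 and 0 from PWK 7 to 14 in WT cortex. In the fit of all 64 libraries, the genes called at PWK 14 rose from 4 to 12 among microtubule genes in hippocampus and from 0 to 3 among spectrin and node genes in cortex, while neuronal scaling lowered the other intermediate filament genes in cortex from 2 to 1. The share of all called genes that was higher in KI at PWK 14 went from 47.8% to 60.4% (total-sum) or 25.2% (neuronal) in cortex, and from 49.0% to 67.9% (neuronal) in hippocampus. Of 1056 refits of all 64 tested differences, called or not, 35 changed the sign of a difference that was called in neither fit.

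With the length of the longest transcript, the mean shares were 52.2% (Nefl), 19.1% (Nefm), 5.73% (Nefh) and 23.0% (Ina), and with the transcript of the longest coding sequence, added after the data were seen, 51.1%, 20.7%, 5.62% and 22.6%.

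Replicate numbers are the same in each group. Both regions came from the same mice, but the sources used here do not say whether a number marks one mouse across regions. Cortical and hippocampal libraries of one number correlated over 0.1 in 17 of 32 pairs (mean 0.14), against 12 of 96 pairs of different numbers (mean -0.046), a hint from the data that some numbers may mark shared mice. The block was kept as an alternative, since not every pair was over 0.1. In a fit of KI against WT within a region, this block pairs libraries of different mice that have the same number. No source used here states such a pairing, and these pairs had a mean r of 0.026, against -0.00905 for different numbers. With the replicate number as a block, 2 of the 4 genes were called in KI cortex at PWK 14, where Nefl had an adjusted p of 0.0544, and 2 in KI hippocampus at PWK 14, and between regions at PWK 1 Nefh was called too (adjusted p = 0.031). Of all genes, 711 against 951 were called in that cortical fit and 1788 against 2870 in the hippocampal one. The cause of these shifts was not tested. Depth per library is not known, and 4 libraries a group limit the precision.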
